A study of Mus musculus with 8 samples.

Results

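The small proline-rich (Sprr) and late cornified envelope (Lce) genes were followed in belly skin of mice that carry human hurpin. Their members were all probe sets on the array that are annotated to exactly 1 gene symbol beginning with Sprr or Lce, which gave 26 probe sets for 24 genes, of 45037 probe sets that are not array controls. The Sprr genes were 9, with Sprr1a and Sprr1b, 6 members of the Sprr2 group (Sprr2d, Sprr2f, Sprr2h, Sprr2i, the pseudogene Sprr2j-ps and Sprr2k) and Sprr3. The Lce genes were 15, with 11 in the Lce1 group and 4 in the Lce3 group (Lce3a, Lce3b, Lce3c and Lce3f). All 24 symbols were those of RefSeq, and all 24 genes lie on mouse chromosome 3. A further 3 probe sets carry several Sprr2a symbols and were not used.

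Skin came from 4 hurpin-transgenic mice, of which numbers 7 and 84 were female and 11 and 17 male. It was set against 3 wildtype mice, of which 26 and 28 were male and 29 was female, and every mouse was 8 months old. Hurpin, also called SERPINB13, is a human serpin that inhibits cathepsin L. The promoter of the transgene, the number of founder lines and the strain are not given in the sources used here. Total RNA of belly skin was hybridised to expression arrays, 1 array for each animal except wildtype 29, whose RNA was on 2 arrays, and nothing in the labels says whether animals were littermates. Summed signal per array lay between 34785081 and 37857733. The array with the highest ratio of 3' to 5' signal of the control transcript Gapdh, a measure of how far the labelled RNA reached towards the 5' end, was that of transgenic 84 at 17.2, followed by transgenic 7 at 13.8, transgenic 17 at 4.68 and transgenic 11 at 1.45, against 0.927 to 1.41 on the 4 wildtype arrays. The epidermal markers Krt5, Krt14, Krt1 and Krt10 measured between 11.74 and 15.37 on the log2 scale in every animal, so keratinocyte RNA was present throughout.

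Cornified cells, the outermost dead cells of the epidermis, replace their membrane by an envelope of proteins that transglutaminases bind to each other. Loricrin and involucrin make much of this envelope, and Sprr proteins act as flexible bridges between its other proteins. Genes of both families lie side by side in the epidermal differentiation complex and are transcribed late, when keratinocytes leave the spinous layers. In human skin LCE1 genes are made in undisturbed epidermis, while LCE3 genes are low there and are induced by injury and in psoriasis. In mouse skin Sprr1b and several Sprr2 genes are likewise known to rise in irritated or wounded epidermis.

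In chromosome order the Sprr2 genes come first, followed by Sprr1b, Sprr3 and Sprr1a, then most Lce1 genes, the Lce3 genes and, beyond them, Lce1m. Promoter windows from RefSeq (GRCm38.p6, 250 bases before to 50 after the transcript start) were found for 22 of the 24 genes. The bases just upstream of the start are shown for the genes on which the results below turn, 210 bases each, 5' to 3' on the gene's own strand. Capitals mark 3 motifs, the TATA box TATAAA (searched on the gene's strand), the AP-1 motif TGACTCA and the octamer ATGCAAAT known to bind POU factors (both strands, so that they may read TGAGTCA and ATTTGCAT).
Sprr2h, chr3:92385475-92385684, plus strand: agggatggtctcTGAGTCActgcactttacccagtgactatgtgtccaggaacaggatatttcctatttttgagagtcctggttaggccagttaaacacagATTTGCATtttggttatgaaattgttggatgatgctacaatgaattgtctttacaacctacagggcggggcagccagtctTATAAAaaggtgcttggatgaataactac
Sprr2k, chr3:92432372-92432581, plus strand: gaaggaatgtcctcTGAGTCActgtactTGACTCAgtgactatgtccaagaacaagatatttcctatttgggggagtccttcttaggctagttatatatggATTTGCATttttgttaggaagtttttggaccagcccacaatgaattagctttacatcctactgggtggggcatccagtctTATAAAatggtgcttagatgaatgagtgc
Sprr1a, chr3:92485882-92486091, minus strand: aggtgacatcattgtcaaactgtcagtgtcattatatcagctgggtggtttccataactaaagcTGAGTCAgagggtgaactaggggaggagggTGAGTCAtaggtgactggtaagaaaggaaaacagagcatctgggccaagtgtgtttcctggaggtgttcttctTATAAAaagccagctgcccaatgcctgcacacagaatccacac
Sprr1b, chr3:92438780-92438989, minus strand: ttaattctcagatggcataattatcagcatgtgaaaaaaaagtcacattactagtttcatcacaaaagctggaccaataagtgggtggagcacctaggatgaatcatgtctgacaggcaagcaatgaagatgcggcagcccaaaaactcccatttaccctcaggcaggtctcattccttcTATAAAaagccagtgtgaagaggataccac
Lce1c, chr3:92679037-92679246, plus strand: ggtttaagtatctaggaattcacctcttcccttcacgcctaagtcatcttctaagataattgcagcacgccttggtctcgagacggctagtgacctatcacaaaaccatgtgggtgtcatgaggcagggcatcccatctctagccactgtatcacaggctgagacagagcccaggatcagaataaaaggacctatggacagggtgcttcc
Lce3c, chr3:92944276-92944485, plus strand: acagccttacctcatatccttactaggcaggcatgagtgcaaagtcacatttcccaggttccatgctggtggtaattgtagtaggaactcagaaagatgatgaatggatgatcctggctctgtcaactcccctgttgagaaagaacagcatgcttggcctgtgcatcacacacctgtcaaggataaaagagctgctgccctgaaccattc
The Sprr2 promoters shared one layout. In all 5 Sprr2 windows TATAAA began at -29 from the start, the octamer between -112 and -108 and TGACTCA between -198 and -193, with another TGACTCA at -182 in Sprr2k. Of all 32851 windows of the same length in the table, 8.32% held TATAAA, 5.20% held TGACTCA and 1.74% held the octamer. Sprr1a held TATAAA and 2 copies of TGACTCA, while Sprr1b and Sprr3 held TATAAA and neither of the others. Of the 10 Lce1 windows 2 held TATAAA (Lce1d and Lce1m), and in those windows, as in the 4 Lce3 windows, TGACTCA and the octamer were not found in these letters. Upstream sequences of the Sprr2 genes were 60.1% to 80.6% identical in pairwise alignments, and those of Lce1 genes 50.5% to 85.6%. None of the motifs overlapped another.

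Likeness between the transcripts, which was not measured here, can limit what each probe set reads. Of the 26 probe sets, 6 are of the type that the array's maker marks as able to bind other transcripts (those of Lce1a1, Lce1d, Lce1h, Lce1i, Lce3b and Lce3c, ending in _x_at; Lce1a1 also has a unique one) and 2 are shared among transcripts of a family (those of Sprr2h and Lce1m, ending in _s_at). Signals of such members may include near-identical neighbours, and a level of one probe set was not set against that of another.

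Between transgenic and wildtype skin no Sprr or Lce gene differed beyond the spread between animals. Of the 26 probe sets 22 passed the level filter, a mean log2 signal of 6.45 or more over the 7 animals, and were tested. Signals are log2 of intensity plus a pseudocount of 21.8, so that the lowest possible value is 4.45. In limma 0 of the 22 had an adjusted p under 0.05, against 0.0148% of all 27022 probe sets tested, and 0 had an unadjusted p under 0.05, against 11.7% of all. In 0 of the 22 did the animals of the groups fail to overlap, against 11.3% of all. The members' adjusted p ran from 0.472 for Lce3c to 0.993 for Lce3b. Log2 differences (transgenic minus wildtype) lay above 0 for 14 probe sets and below 0 for 8, with a median of 0.04, where the median of all probe sets tested was 0.0012. Their 95% confidence intervals reached between 0.48 (Lce1a2) and 2.83 (Sprr2h) to each side, so for some members large differences were not detectable with 7 animals.

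**Figure D1:**
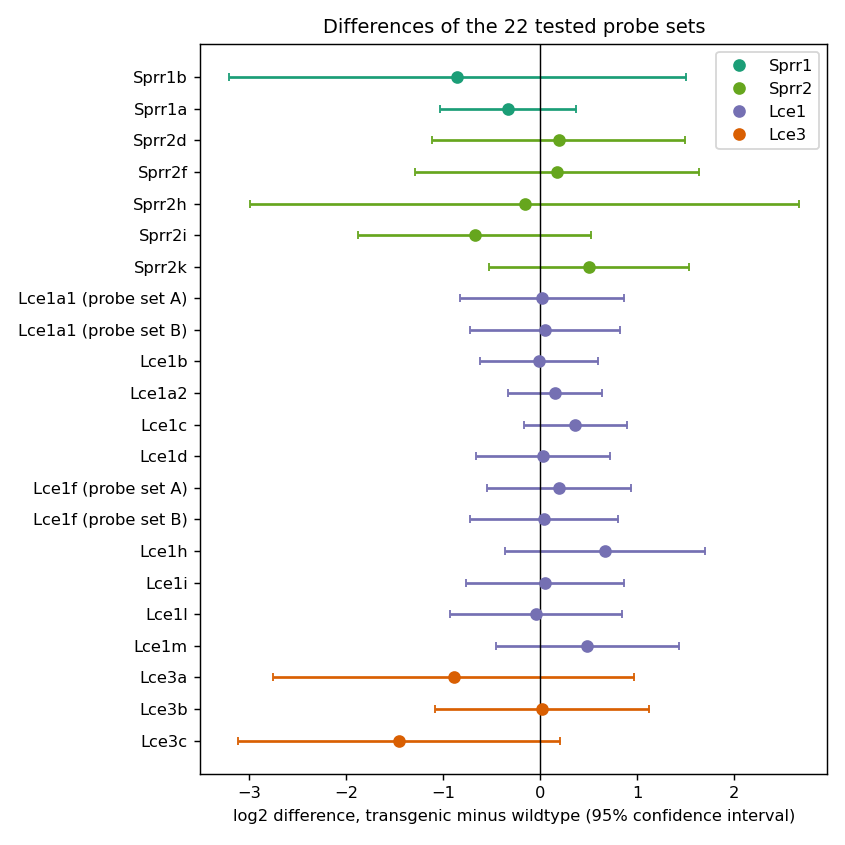
Log2 difference (x axis, transgenic minus wildtype, with the 95% confidence interval as a bar) of each tested probe set (y axis), coloured by subfamily. All 22 intervals include 0, and they are widest for Sprr2h and Sprr1b. Where a gene has a pair of probe sets they are called A and B.

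Side by side, the subfamilies had different median differences, and no difference between subfamilies was tested. The median log2 difference was -0.59 for the 2 Sprr1 probe sets, 0.17 for the 5 tested Sprr2 probe sets, 0.05 for the 12 tested Lce1 probe sets and -0.89 for the 3 tested Lce3 probe sets. Single animals moved these medians. Without wildtype 26 they were -1.43 for Sprr1, -0.39 for Sprr2, 0.44 for Lce1 and -1.95 for Lce3. Without wildtype 29 they were -0.12 for Sprr1, 0.52 for Sprr2, -0.15 for Lce1 and -0.20 for Lce3. The Lce1 median was also below 0 without transgenic 17 (-0.15) and without wildtype 28 (-0.0044), and the Sprr2 median without transgenic 7 (-0.13). The level filter was set anew in each fit, so the Sprr2 medians without wildtype 29 and without transgenic 7 are over 4 probe sets, not the same 5. Over whole families it was -0.16 for the 7 tested Sprr probe sets (3 above 0) and 0.04 for the 15 tested Lce probe sets (11 above 0). Of the Lce1 probe sets 10 lay above 0, between 0.02 and 0.67, and the other two at -0.01 (Lce1b) and -0.05 (Lce1l). Within groups these families spread more widely than the typical probe set. The SD within groups was above the median of all tested probe sets (0.32) in 22 of 22 members, and among the highest 10% of all tested probe sets in 11 of 22. These counts describe members that share probes and animals and were given no test. High spread was not particular to them. In transgenic and wildtype animals the SD was 1.84 and 4.53 for the enzyme gene Padi3, but 0.18 and 0.05 for the envelope gene Crct1.

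Sprr1a and Sprr1b encode small proline-rich proteins of the cornified envelope. Sprr1a measured 14.81, 14.22, 13.67 and 14.33 in transgenic 7, 11, 17 and 84, against 13.94, 14.98 and 14.84 in wildtype 26, 28 and 29. Sprr1b measured 9.41, 7.56, 6.82 and 9.26 in the same transgenic animals, against 6.44, 10.18 and 10.75 in the wildtype animals. In both genes transgenic 17 and wildtype 26 were the lowest animals and wildtype 28 and 29 the highest or next to highest, so the groups overlapped. The log2 difference was -0.33 for Sprr1a (95% confidence interval -1.03 to 0.37, limma adjusted p = 0.694) and -0.86 for Sprr1b (SE 1.04, adjusted p = 0.773). Sprr1b varied over a 19.8-fold range of signal between animals on this scale, and the pooled SD within groups was 1.78.

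Sprr2h had the widest spread of the members that were tested and is singled out for it after its values were seen. It measured 12.38, 8.83, 8.13 and 10.90 in transgenic 7, 11, 17 and 84, against 7.46, 11.23 and 11.97 in wildtype 26, 28 and 29, a 30.2-fold range. High and low animals occurred in both groups, and the group means of 10.06 ± 1.94 in transgenic (SD, n = 4) and 10.22 ± 2.42 in wildtype animals (SD, n = 3) gave a log2 difference of -0.16 (limma adjusted p = 0.971). Its pooled SD within groups, 2.15, was larger than that of 99.6% of all tested probe sets. The repeat array of wildtype 29 read 11.87, against 12.08 on the first. The animals fell in the same order for Sprr2h and Sprr1b at the low end, with wildtype 26 lowest, then transgenic 17 and then transgenic 11.

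**Figure D2:**
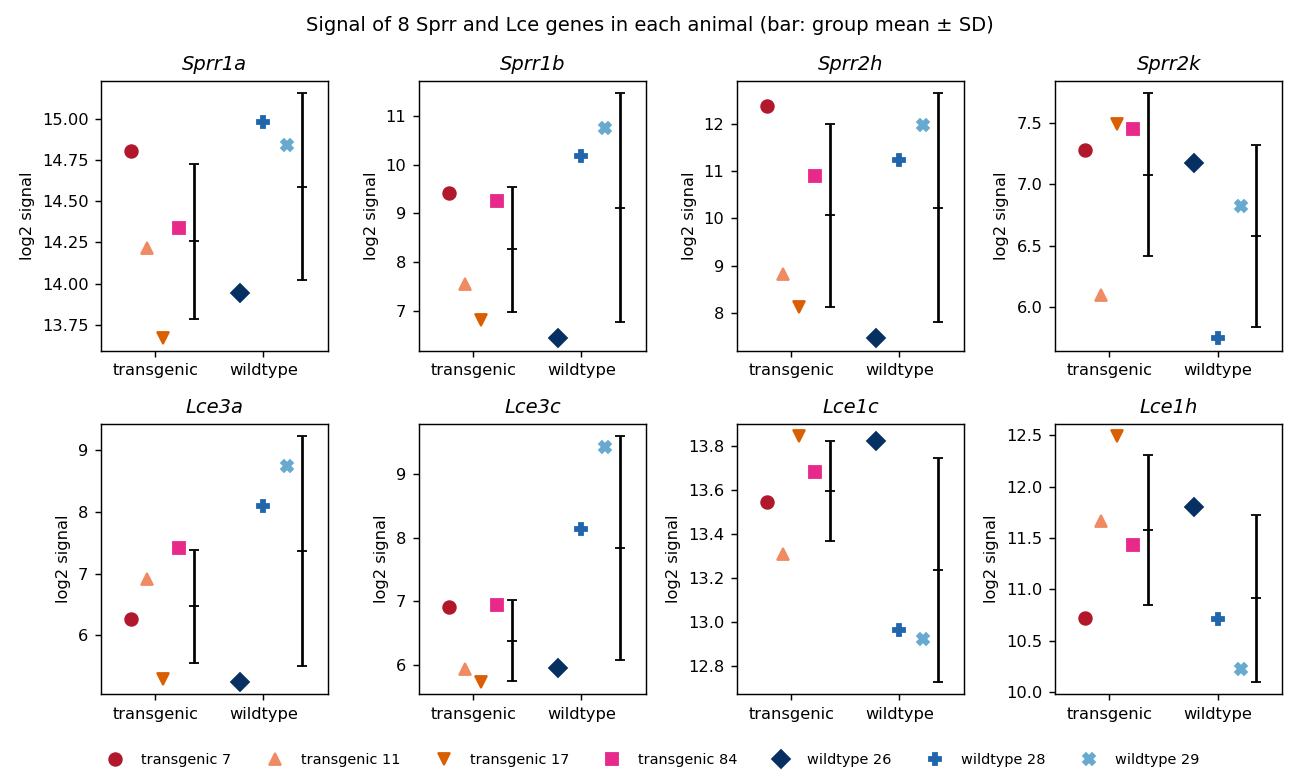
Log2 signal (y axes, a scale of its own in each panel) of 8 genes in each of the 4 transgenic and 3 wildtype animals, with a black bar for the group mean ± SD. In Sprr1a, Sprr1b, Sprr2h, Lce3a and Lce3c wildtype 26 lies far below wildtype 28 and 29, and in Lce1c and Lce1h it lies above them.

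The other tested Sprr2 genes varied less than Sprr2h and differed in which animals were high. Sprr2f measured 7.09, 6.15, 6.53 and 6.79 in transgenic 7, 11, 17 and 84, against 4.80, 6.69 and 7.91 in wildtype 26, 28 and 29 (log2 difference 0.17, limma adjusted p = 0.938). It lay on the same side of its mean as Sprr2h in each of the 7 animals, with wildtype 26 lowest in both genes. Sprr2i measured 5.23, 7.49, 6.85 and 6.0045 in transgenic 7, 11, 17 and 84, against 7.64, 6.91 and 6.66 in wildtype 26, 28 and 29 (-0.68, limma adjusted p = 0.638). Wildtype 26 was its highest animal and transgenic 7 its lowest, while Sprr2h was highest in transgenic 7 and lowest in wildtype 26. Sprr2k measured 7.28, 6.10, 7.49 and 7.45 in the transgenic animals, against 7.17, 5.74 and 6.82 in the wildtype animals (0.50, adjusted p = 0.688), and wildtype 28 and transgenic 11 were its lowest animals. Sprr2d (0.19) ranged from 5.35 to 7.41 in transgenic and from 5.36 to 7.07 in wildtype animals. These signals were low, within a few log2 units of the floor of 4.45, where a given fold change in intensity moves the log2 value less.

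Sprr3 and Sprr2j-ps did not pass the level filter and were not tested. Sprr3, known from oesophagus and other internal squamous epithelia, measured 6.76, 5.14, 6.63 and 6.11 in transgenic 7, 11, 17 and 84, against 6.36, 6.65 and 6.80 in wildtype 26, 28 and 29. Transgenic 11 stood below the rest, and the log2 difference was -0.44. For wildtype 29 the arrays gave 6.35 and 7.24, a gap of 0.90 that was the largest of the 26 probe sets. Sprr2j-ps lay between 4.85 and 5.51 in transgenic and between 4.78 and 5.21 in wildtype animals, near the floor throughout.

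Of the Lce3 genes, whose human relatives are induced in disturbed skin, Lce3c and Lce3a had the most negative differences of all members, and Lce3b and Lce3f did not share them. Lce3c measured 6.91, 5.93, 5.73 and 6.94 in transgenic 7, 11, 17 and 84, against 5.94, 8.14 and 9.42 in wildtype 26, 28 and 29. Wildtype 28 and 29 were higher than every transgenic animal, while wildtype 26 was among the lowest, and the log2 difference was -1.46 (SE 0.732, 95% confidence interval -3.12 to 0.21, limma adjusted p = 0.472). Lce3a measured 6.26, 6.91, 5.29 and 7.42 in the transgenic animals, against 5.25, 8.10 and 8.75 in the wildtype animals (-0.89, adjusted p = 0.691). The same 2 wildtype animals were highest, and wildtype 26 was lowest. Lce3b differed from both, with 6.34 to 8.43 in transgenic and 7.29 to 8.13 in wildtype animals (0.02, adjusted p = 0.993). Lce3f, below the level filter, lay between 5.17 and 5.88 in transgenic and between 5.21 and 6.02 in wildtype animals (log2 difference -0.08).

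The Lce1 genes, which encode envelope proteins of the normal cornified layer, were high in transgenic 17 and wildtype 26, the animals in which Sprr1b was lowest. All 12 tested Lce1 probe sets lay above their mean in both, while transgenic 7 lay above it in 3 (Lce1a2, Lce1c and Lce1m) and below it in 9. Lce1c measured 13.55, 13.31, 13.84 and 13.68 in transgenic 7, 11, 17 and 84, against 13.82, 12.96 and 12.92 in wildtype 26, 28 and 29 (log2 difference 0.36, limma adjusted p = 0.568). Lce1h measured 10.72, 11.67, 12.49 and 11.43 in the transgenic animals, against 11.80, 10.71 and 10.22 in the wildtype animals (0.67, adjusted p = 0.585). Transgenic 17 was the highest animal in both genes, and wildtype 29 the lowest. Wildtype 26 was highest in 8 of the 12 tested Lce1 probe sets and transgenic 17 in the other 4, while wildtype 29 was lowest in 9 and transgenic 7 in 3. Lce1m, which lies apart from the rest beyond the Lce3 genes, was also high in transgenic 17 and wildtype 26, with 12.85, 12.35, 13.22 and 12.85 in the transgenic animals, against 13.50, 11.76 and 11.74 in the wildtype animals (0.49, adjusted p = 0.671).

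The remaining Lce1 genes had smaller differences. Log2 differences were 0.02 and 0.05 for the probe sets of Lce1a1, 0.15 for Lce1a2, -0.01 for Lce1b, 0.03 for Lce1d, 0.20 and 0.04 for those of Lce1f, 0.05 for Lce1i and -0.05 for Lce1l, with adjusted p between 0.811 and 0.992. Lce1a1 stood highest in wildtype 26 with either probe set, at 13.71 and 13.52. Lce1f stood highest in transgenic 17 with either, at 12.75 and 9.23, while its lowest animal was wildtype 29 with the first (11.32) and transgenic 7 with the second (7.99). Lce1g did not pass the level filter and lay between 4.86 and 6.79 in transgenic and between 5.75 and 7.10 in wildtype animals. Over the 22 tested members the arrays of wildtype 29 differed by 0.0057 to 0.64 on the log2 scale (median 0.19).

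**Figure D3:**
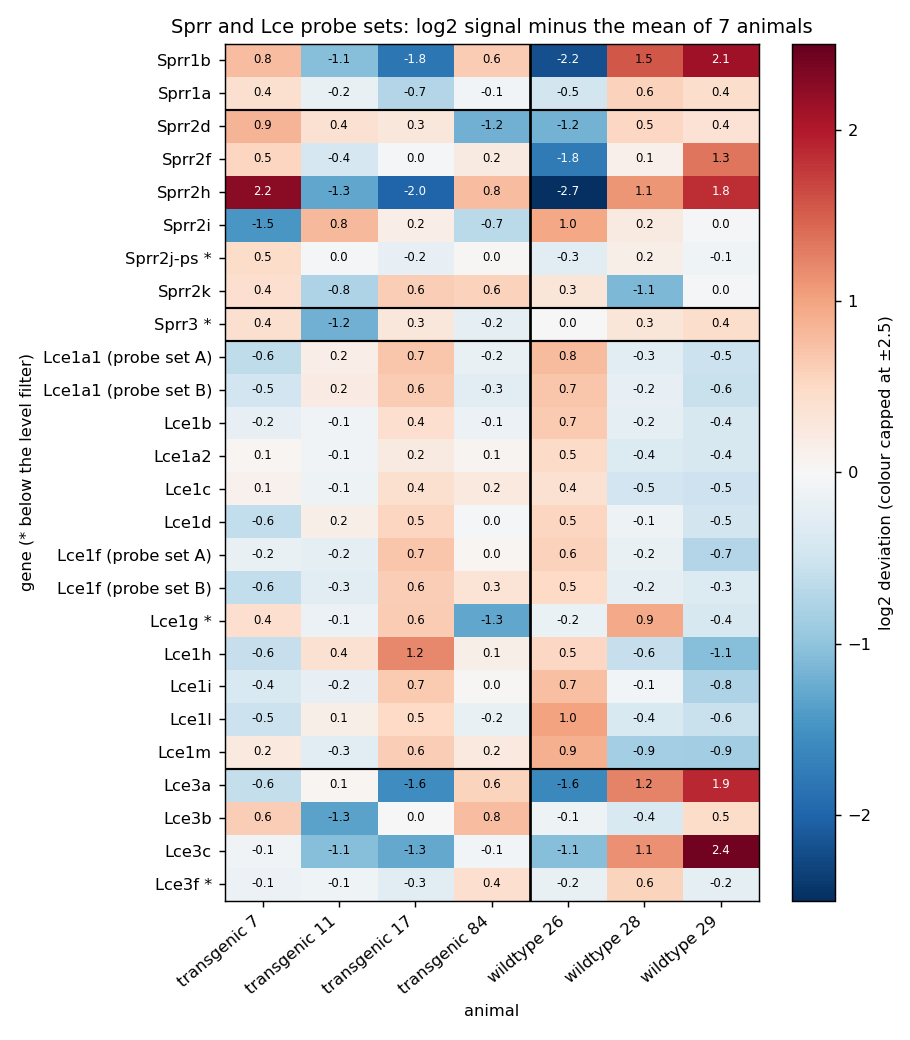
Log2 signal of each of the 26 probe sets (rows, grouped by subfamily and in chromosome order within it) in each animal (columns, transgenic left of the line, wildtype right), shown as the deviation from the mean of the 7 animals. Transgenic 17 and wildtype 26 are below the mean in Sprr1b, Sprr2h, Lce3a and Lce3c and above it in all 12 tested Lce1 probe sets. Both animals are also above it in Sprr2i and Sprr2k.

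Hair follicle markers differed between the same animals. The mean log2 signal of 7 hair shaft keratins was 13.81, 12.82, 9.96 and 13.76 in transgenic 7, 11, 17 and 84, against 6.58, 14.26 and 14.32 in wildtype 26, 28 and 29. The inner root sheath keratins, 5 of 5 measured, had list means of 14.53, 13.96, 10.99 and 14.33 in the transgenic animals, against 8.12, 14.60 and 14.56 in the wildtype animals. The animals with the lowest hair keratin signal, wildtype 26 and transgenic 17, were those with low Sprr1b, Sprr2h and Lce3c and high Lce1 signal. Transgenic 11 came next in both Sprr2h (8.83) and the hair keratin mean (12.82). Sprr1b followed the order of the hair keratin mean in all 7 animals. In Sprr2h transgenic 7 departed from this order, as the highest animal at 12.38, while its hair keratin mean was below those of wildtype 28 and 29. Not all members followed the order. From their means, wildtype 26 and transgenic 17 deviated by 0.96 and 0.16 in Sprr2i, 0.31 and 0.62 in Sprr2k, and -0.12 and -0.01 in Lce3b. In these bulk samples fewer cells of a type and less RNA per cell cannot be told apart, and the part of hair follicles in the Sprr and Lce values was not tested. Of the 9 listed epidermal keratins all 9 were tested and 0 passed, with a median log2 difference of 0.12. The basal keratin Krt14 lay between 14.09 and 14.34 in transgenic and between 14.10 and 14.32 in wildtype animals. The suprabasal keratin Krt1 varied more, with 12.66, 12.69, 13.71 and 12.52 in transgenic 7, 11, 17 and 84, against 13.96, 12.86 and 11.74 in wildtype 26, 28 and 29. Like most Lce1 genes it was highest in wildtype 26 and transgenic 17 and lowest in wildtype 29. Krt2 measured 8.87 in transgenic 17 and between 5.84 and 6.22 in the other animals. Krt1, Krt2 and Krt14 were chosen after their values were seen.

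**Figure D4:**
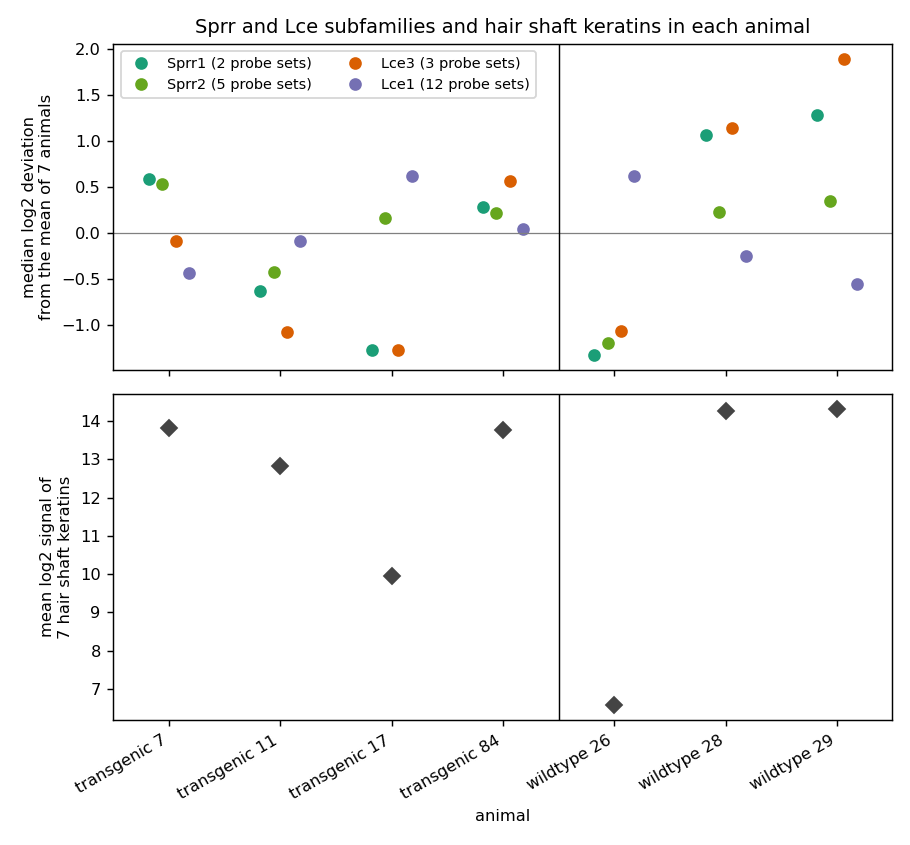
The upper panel plots, for each animal (x axis), the median log2 deviation of the tested probe sets of each subfamily from the mean of 7 animals, and the lower panel the mean log2 signal of 7 hair shaft keratins. Wildtype 26 has the lowest hair keratin mean (6.58) and stands at -1.32 for Sprr1, -1.19 for Sprr2, -1.06 for Lce3 and 0.62 for Lce1, while wildtype 29 stands at 1.28, 0.35, 1.89 and -0.55. Transgenic 17 stands at -1.27 for Sprr1, 0.16 for Sprr2, -1.27 for Lce3 and 0.62 for Lce1.

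A fit that adjusts each probe set for the mean of the hair shaft keratins left 0 of 22 members past the threshold, against 0.0814% of all probe sets. At an unadjusted p under 0.05 limma then gave 7 of 22 members, against 17.3% of all, with 4 lower (9.88% of all) and 3 higher (7.45% of all) in transgenic skin. The lower ones were Lce3c (-1.77, SE 0.367), Sprr1b (-1.33), Lce3a (-1.25) and Sprr1a (-0.46), and the higher ones Lce1h (0.85), Lce1m (0.66) and Lce1c (0.45). The smallest adjusted p among the members in this fit was 0.124, for Lce3c.

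Wildtype 26 decided much of the overlap between groups. Without it 9 of 22 members had no overlap between groups, against 29.2% of all probe sets in that fit, and 8 of 22 had an unadjusted p under 0.05, against 15.6% of all. Of the members lower in transgenic skin, Lce3c stood at -2.40, Sprr1b at -2.19, Lce3a at -1.95 and Sprr1a at -0.66, while Lce1h stood at 1.11, Lce1m at 1.07, Lce1c at 0.65 and Lce1a2 at 0.43. Lce1b, at 0.31, was the other one with no overlap. In that fit 0 of 22 had an adjusted p under 0.05, against 0.0074% of all (smallest 0.203, for Lce3c), and the labels give no reason to leave this animal out. Without wildtype 29, by contrast, Lce3c stood at -0.66 and Sprr1b at -0.04, so with 3 wildtype animals the size of these differences rested on single mice. Without transgenic 11 the groups did not overlap in 1 member (Sprr2k, against 24.6% of all probe sets), and without transgenic 7 and 84 in 1 member (Lce3c, against 20.3% of all).

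**Figure D5:**
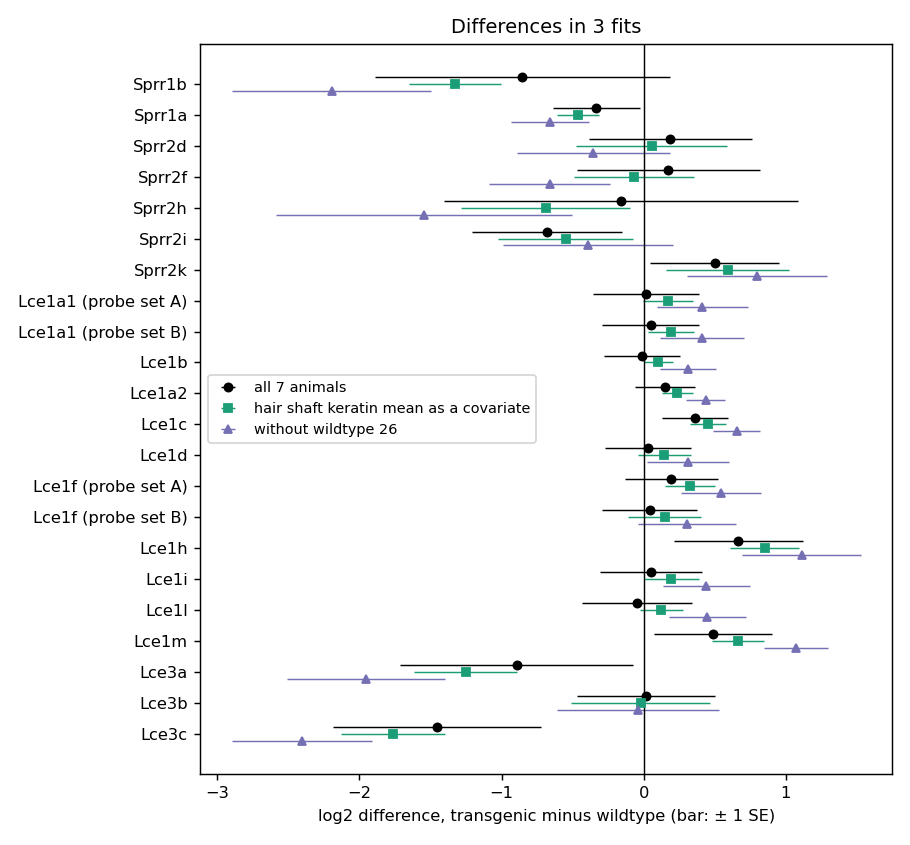
Log2 differences (x axis, transgenic minus wildtype, bars ± 1 SE) of the 22 tested probe sets (y axis) with all 7 animals, after adjustment for hair shaft keratins and without wildtype 26. Sprr1b, Lce3a and Lce3c lie furthest below 0 without wildtype 26 (-2.19, -1.95 and -2.40), and Lce1h and Lce1m furthest above (1.11 and 1.07).

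Sex and RNA quality also differed between the animals. Sprr2h measured 12.38 and 10.90 in transgenic and 11.97 in wildtype females, and 8.83 and 8.13 in transgenic and 7.46 and 11.23 in wildtype males, so the 3 lowest animals were all male. With sex as a covariate its log2 difference was -0.65 (limma adjusted p = 0.774), that of Lce3c -1.72 (adjusted p = 0.304) and that of Lce1h 0.84 (adjusted p = 0.377), and 0 of 22 members passed, against 0.0407% of all. With the Gapdh ratio as a covariate 0 of 22 passed, against 0% of all, and several differences moved by more than 1.5 times with wider errors. Sprr2h then stood at -2.38 (SE 1.77), Sprr1b at -2.32 (SE 1.57), Lce3c at -2.27 (SE 1.14), Sprr1a at -0.65 and Lce1h at 1.21. Lce3b stood at -1.44, against 0.02 without the covariate, while Lce1c and Lce1m, both at 0.17, were nearer to 0. Transgenic 7 and 84 had the highest Gapdh ratios, and every transgenic array had a higher ratio than every wildtype array. In this design the ratio and the group cannot be told apart, so this fit does not show that members move with RNA quality. The part of RNA quality in the values was not tested.

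Other genes of the cornified envelope and its regulation also gave no call. Of 23 further envelope proteins listed 18 were tested, 0 passed, and the median log2 difference was -0.06 (8 above 0). Loricrin (Lor) gave 0.30, involucrin (Ivl) -0.39, filaggrin (Flg) 0.16 and the suprabasal keratin Krt10 0.19. Less abundant probe sets gave -0.70 for Ivl (limma adjusted p = 0.356) and 0.24 and 0.74 for Lor. Lor followed the Lce1 genes, with 14.61, 14.46, 14.81 and 14.53 in transgenic 7, 11, 17 and 84, against 14.76, 14.17 and 13.98 in wildtype 26, 28 and 29, and so was high in transgenic 17 and wildtype 26. The listed envelope genes were split in this. Hrnr, Csta1, Dmkn and Kprp were likewise highest in these animals, while Cnfn, Tchh, Tchhl1 and Prr9 were lowest in them. Krt6a, a keratin of stressed epidermis and of the follicle's companion layer, measured 13.16, 11.75, 11.42 and 12.26 in the transgenic animals, against 11.52, 13.16 and 13.02 in the wildtype animals, and so was low in the animals with low Sprr1b. Its log2 difference was -0.42, and its other probe sets gave -1.23 and -1.49 (adjusted p = 0.355 and 0.342). The listed genes of stressed epidermis did not all follow Krt6a. Krt17 was likewise lowest in transgenic 17 and wildtype 26, while Il1f8 and Il1f9 were highest in them. The mean of the tested genes of that list was 9.15 in transgenic 17 and 8.80 in wildtype 26, against 8.62 to 8.86 in the other animals.

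Of the 13 listed cross-linking and processing enzymes all 13 were tested, 0 passed and 10 lay below 0 (median -0.23). Asprv1, a protease that processes filaggrin, measured 13.05 ± 0.36 in transgenic (SD, n = 4) and 13.73 ± 0.15 in wildtype skin (SD, n = 3; log2 difference -0.69, limma adjusted p = 0.315). Cdsn, of the corneodesmosomes, had a log2 difference of -0.83 (adjusted p = 0.301). In both genes all transgenic animals lay below all wildtype animals. No overlap between groups was found in 2 of the 13 tested enzymes and 2 of the 18 tested envelope proteins, against 11.3% of all probe sets. Of 21 listed transcription factors of late differentiation all 21 were tested and 0 passed (median -0.0032), with 5 lower (7.93% of all probe sets) and 1 higher (3.77% of all) at an unadjusted p under 0.05. Junb, a subunit of AP-1, measured 7.49, 7.75, 7.88 and 7.16 in transgenic 7, 11, 17 and 84, against 8.57, 9.24 and 9.70 in wildtype 26, 28 and 29 (-1.60, SE 0.293, adjusted p = 0.217). Every transgenic animal was below every wildtype animal, without passing the threshold over all probe sets. Zfp750, a transcription factor of terminal keratinocyte differentiation, was separated in the same way (-0.66, adjusted p = 0.301), while Klf4, another such factor, gave 0.08 with its most abundant probe set and -0.75 with the other (adjusted p = 0.301). Of the 21 factors 3 had no overlap between groups, against 11.3% of all probe sets.

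Among targets of the oxidative stress factor Nrf2, which drives some Sprr2 genes in mouse keratinocytes, 9 were tested, 0 passed and the median was -0.17. Of the list of stressed epidermis 13 genes were tested, 0 passed and the median was -0.02. Of the S100 genes that share the chromosome region 10 were tested and 0 passed (median 0.28). By the most abundant probe set of each gene, markers of adipocytes lay above 0 in 3 of 3 and those of skeletal muscle and mast cells in 4 of 4 each. Those of melanocytes lay below 0 in 4 of 4, and 0 passed in any of these lists. Of all probe sets tested 50.2% lay above 0. Among these markers Lep, the hormone leptin, gave 2.52 (limma adjusted p = 0.217) and Ryr1, the calcium release channel of muscle, 0.64 (adjusted p = 0.340). Other probe sets of Myh4 (-1.92), Fabp4 (-0.59) and, below the level filter, Kit (-1.57) and Ryr1 (-0.86) lay below 0. Those of Ckm (0.53) and further ones of Fabp4 (0.13 and 0.32) lay above 0. The part of these cell types in the Sprr and Lce values was not tested.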

How the data were processed

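The 8 arrays of total RNA from belly skin cover 7 mice. Each deposited value is an intensity that the authors computed with MAS5 per the submitters' processing notes (version not given), and the values show the same trimmed mean on each array. No detection calls were used. Gene symbols came from the array annotation, in which 34945 probe sets have 1 symbol, 932 several and 9160 none.

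Intensities were analysed as log2 after adding 21.8, the 20th percentile of the whole table. The pair of arrays of wildtype 29 was averaged. Probe sets with a mean below the 40th percentile (6.45) were left out, which left 27022. The comparison used limma 3.58.1, run under R 4.3.3 (group only, eBayes with trend, 2-sided), with Benjamini-Hochberg adjustment over all of them and a threshold of 0.05. The fit was tested on simulated data. Alternatives changed normalization, pseudocount, filter, empirical Bayes settings, covariates, arrays of wildtype 29, probe sets per gene and animals.

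Members, lists and tests were chosen with earlier results of these data known. Named by rule were the 2 genes with the smallest p in each subfamily that passed the filter, members with an outlying animal or no overlap, and up to 6 list genes with no overlap plus Lor, Ivl, Flg, Krt10 and Krt6a. Sprr2h and Lce1m were added after their values were seen. Values in each animal are also given for Sprr2f and Sprr3, which the rule did not name. For genes of the lists the most abundant probe set is given. Because the labels do not say how the animals are related, p-values measure the spread between these animals. Figures used Python 3.11.15 and matplotlib 3.10.9.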

Additional observations from a re-analysis of the deposited data

Results flagged for a closer look

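Among the 4 transgenic animals, transgenic 11 stood far from the others in Sprr2k, at 6.10 against 7.28 to 7.49. The gap took 0.852 of the group's whole range, more than Dixon's 95% critical value for 4 samples. It was the 1 case in 37 genes and probe sets looked at, and chance alone marks about 1 group in 20. Without transgenic 11 the log2 difference of Sprr2k was 0.83 and the groups no longer overlapped, as in 24.6% of all probe sets in that fit.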

How the results depend on the processing

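Under all 22 alternatives 0 member probe sets were called, and the smallest adjusted p over them was 0.124. The number with no overlap between groups was 0 in most alternatives, ran from 0 to 9 with an animal left out (9 without wildtype 26, 1 without transgenic 11), and was 1 without transgenic 7 and 84. Over the alternatives the median difference ran from -0.66 to 0.19 for the Sprr probe sets, -0.19 to 0.41 for Lce, -1.48 to -0.12 for Sprr1, -0.39 to 0.52 for Sprr2, -0.15 to 0.44 for Lce1 and -1.95 to -0.20 for Lce3, so its sign turned in all but Sprr1 and Lce3. Of 472 alternative differences of tested members 68 turned sign, in 15 of 22 probe sets, all of them differences that passed no threshold, and the cause was not tested. With the Gapdh ratio as a covariate these were 0.11 for Lce1b, -0.00704 for a probe set of Lce1f, 0.36 for Lce1l, -1.44 for Lce3b, -0.38 for Sprr2f, 0.69 for Sprr2i and -0.37 for Sprr2k. After cyclic loess normalization they were -0.0797 and -0.0439 for Lce1a1, -0.0259 for Lce1d and -0.0329 for Lce1i, and after quantile normalization -0.0161 for Lce1a1 and -0.0062 for Lce1d. Adjusted for hair shaft keratins they were 0.10 for Lce1b, 0.12 for Lce1l, -0.0219 for Lce3b and -0.0691 for Sprr2f, and with sex 0.0627, 0.0782, -0.17 and -0.0308 for the same genes. Without transgenic 7 and 84 they were 0.16 for Lce1b, 0.29 for Lce1l, -0.66 for Lce3b and 0.10 for Sprr2i. The first array of wildtype 29 gave 0.0597 for Lce1l and -0.0487 for Lce3b, and the second 0.0024 for Lce1b. A pseudocount of 5.45 gave -0.0060 for Lce3b, and one of 87.2 gave -0.0235 for Sprr2f. With an animal left out the range was -0.25 to 0.41 and -0.22 to 0.41 for the probe sets of Lce1a1, -0.0035 to 0.43 for Lce1a2, -0.22 to 0.31 for Lce1b, -0.19 to 0.31 for Lce1d, -0.12 to 0.54 and -0.16 to 0.30 for those of Lce1f, -0.32 to 0.44 for Lce1i and -0.34 to 0.45 for Lce1l. It was -0.235 to 0.46 for Lce3b, -0.35 to 0.61 for Sprr2d, -0.66 to 0.34 for Sprr2f and -1.54 to 0.71 for Sprr2h. The level filter was set anew in each fit. Sprr2f fell below it without wildtype 29 and Sprr2d without transgenic 7, so their ranges leave out those fits. Wildtype 29 was the highest animal for Sprr2f (7.91), so the range given for Sprr2f is too narrow at its upper end. No paired analysis was possible because the groups share no animal numbers. The number of animals and low signal near the floor limit what Sprr2, Sprr3 and Lce3 probe sets can show.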
